A study of Mus musculus with 118 samples.

Results

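The 33 genes described here encode subunits of the 2 main Polycomb complexes. They were taken from a fixed list of Polycomb repressive complex 1 (PRC1) and Polycomb repressive complex 2 (PRC2) subunits, and they are 33 of 26180 annotated mouse genes with a curated transcription start site (TSS). The list holds 2 PRC1 core genes, 9 canonical PRC1 genes, 12 variant PRC1 genes and 10 PRC2 genes. All 33 symbols were found in the annotation.

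The series holds 118 samples in 42 groups of mouse embryonic stem cells (ESCs), profiled by calibrated chromatin immunoprecipitation and sequencing. The data described here are 3 lists of binding sites (peaks) from untreated cells, 18643 for RING1B, 7438 for SUZ12 and 3680 for PCGF2. They rest on untreated PRC1CPM cells (clone 41 of strain E14), with 3 samples for each of the 3 proteins, and for SUZ12 also on 3 samples of untreated PRC1CKO cells (clone B9 of strain E14). The RING1B list further used RING1B data from PRC1CKO cells that were not analysed here. In PRC1CPM cells the Ring1 alleles carry I50A and D53K (Ring1aI50A/D53K), and the Rnf2 alleles produce wild-type RING1B until recombination converts it to the I53A and D56K form (Ring1b(WT->I53A/D56K)fl/fl). PRC1CKO cells are Ring1a-/-; Ring1bfl/fl. Both lines carry Rosa26::ERT2-Cre, so the recombinase is present and not induced, and both had human HEK293T cells (a kidney-derived line) added as the calibration standard. Each line is a single clone, and in both the RING1A protein is either absent or mutated, so no list comes from fully wild-type cells. Peaks are positions only. There is no height, read depth or replicate value behind them, so no error can be given, no test was made, and the identity of the cells could not be checked against marker genes.

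PRC1 is a ubiquitin ligase for histone H2A, built on RING1A or RING1B and one of the PCGF proteins. Canonical PRC1 holds PCGF2 or BMI1 with CBX and PHC proteins, and its CBX chromodomain binds the histone mark that PRC2 places on H3 lysine 27. Variant PRC1 holds RYBP or YAF2 with any of the PCGF proteins, and PRC2 is built from EZH1 or EZH2, EED and SUZ12 with alternative accessory subunits. In ESCs these complexes gather at CpG-rich promoters of developmental genes. The question here is where the complexes sit at their own genes.

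A promoter was each curated TSS plus or minus 2500 bp, and a gene counted as occupied if a peak shared at least 1 bp with any of its promoters. RING1B was present at 32 of the 33 subunit genes, which is 97.0%, beside 53.2% of all genes. SUZ12, the PRC2 subunit, was at 16 of them (48.5%, beside 24.8% of all genes), and PCGF2, the canonical PRC1 subunit, was at 12 (36.4%, beside 13.5%). RING1B and SUZ12 occurred together at all 16 genes with SUZ12 (24.5% of all genes held both), and the 12 genes with PCGF2 held all 3 proteins (13.4% of all genes). Of the rest, 4 held RING1B and SUZ12 without PCGF2, 16 held RING1B alone, and Mtf2 held none.

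The subunit genes are unlike an average gene in sequence, since all 33 have a CpG-rich stretch of at least 500 bp at a TSS. Such a stretch was found at 13711 of all genes, and of those 86.8% held RING1B, 40.8% SUZ12 and 23.0% PCGF2. The shares of the members lay above these by 10.1 percentage points for RING1B, 7.69 for SUZ12 and 13.3 for PCGF2. Among genes that held RING1B, SUZ12 was at 46.0% over all genes and at 50.0% of the 32 members, so the share of the members was near the background. PCGF2 was at 25.3% of all genes with RING1B and at 37.5% of the 32 members. Among genes that held both, PCGF2 was at 54.7% over all genes and at 75.0% of the 16 members.

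**Figure D1:**
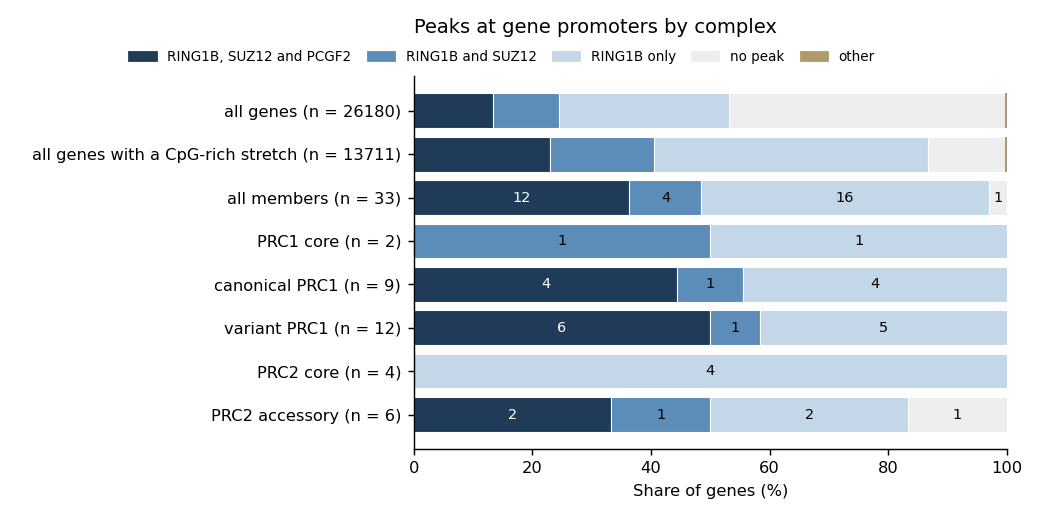
Shares of genes (horizontal axis, %) by which proteins have a peak at a promoter, for all genes, genes with a CpG-rich stretch of at least 500 bp, the 33 Polycomb subunit genes and their classes. Numbers in the bars are genes. All 4 PRC2 core genes held RING1B only, and 6 of 12 variant PRC1 genes held all 3 proteins.

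By class, SUZ12 was at 1 of 2 PRC1 core genes, 5 of 9 canonical PRC1 genes, 7 of 12 variant PRC1 genes and 3 of 10 PRC2 genes. Within PRC2 it was at 0 of 4 core genes and 3 of 6 accessory genes. Beside these counts stand 40.8% of all genes with a CpG-rich stretch and 46.0% of all genes with RING1B. PCGF2 was at 0 of 2, 4 of 9, 6 of 12 and 2 of 10 in the same order of classes. Its shares were 23.0% of all genes with a CpG-rich stretch and 25.3% of all genes with RING1B. With so few genes in each class these counts are a description of the lists.

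Peak calling differed between the 3 lists, and medians of peak width are therefore compared within the RING1B list. Where widths or edges of different lists are set side by side for a gene, the part of peak calling in the difference was not tested. The widest RING1B peak of a subunit gene had a median of 3117.5 bp over the 32 genes, beside 1810 bp over all 13922 genes with RING1B. The median was 2503 bp in canonical PRC1 (range 688 to 31577 bp) and 4098.5 bp in variant PRC1 (954 to 22452 bp). It was 1953 bp in the PRC2 core (1093 to 2770 bp) and 4788 bp in PRC2 accessory genes (472 to 7196 bp), and 2742 bp over all PRC2 genes. The ranges of all classes overlapped. When all peaks at the promoters of a gene were summed, the canonical PRC1 median was 4400 bp and the variant PRC1 median stayed at 4098.5 bp, so the order of these classes turned. The 16 genes with SUZ12 had a median RING1B width of 5583.5 bp and the 16 without it 2032 bp, beside 3323 bp and 1233 bp for all genes of those kinds. A difference in the same direction was thus present over all genes. The widest peak was taken over all TSSs of a gene. Among these members 6 of the 16 with SUZ12 had several TSSs, against 2 of the 16 without it.

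**Figure D2:**
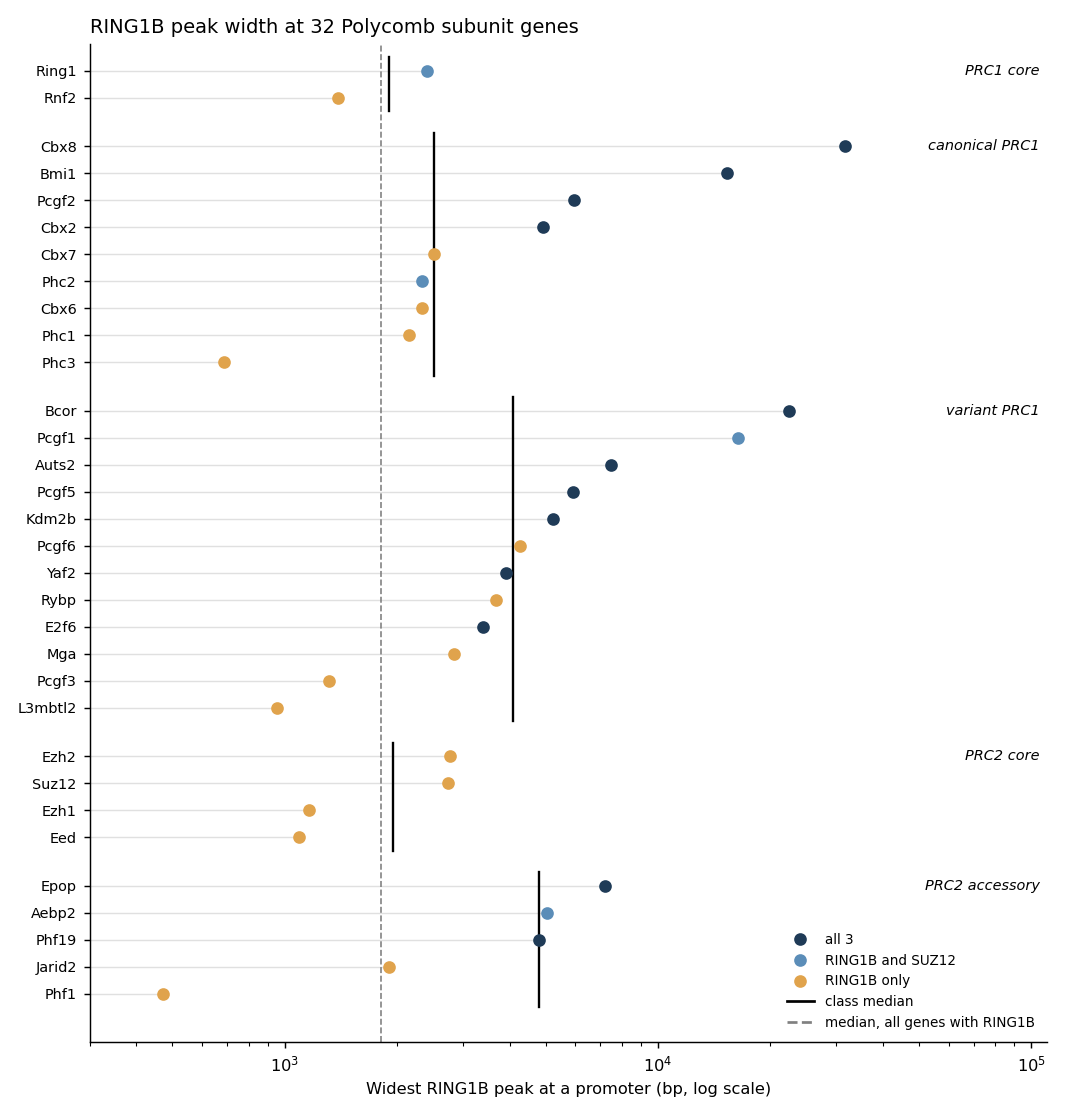
Width of the widest RING1B peak at a promoter (horizontal axis, bp, log scale) for the 32 subunit genes that hold one, by class. Colour gives the proteins present, black lines the class medians and the dashed line the median of all genes with RING1B (1810 bp). Cbx8 (31577 bp), Bcor (22452 bp), Pcgf1 (16393 bp) and Bmi1 (15269 bp) stand at the wide end and Phf1 (472 bp) at the narrow end. The Pcgf1 peak also covers the TSS of Tlx2 and the Bmi1 peak that of Commd3.

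Where a RING1B peak covered a TSS, its width was divided at the TSS. The amounts are parts of the peak width and no separate result, and no values over all genes stand beside them. In the 14 genes with RING1B alone the peak reached a median of 717.5 bp upstream and 1004 bp downstream of the TSS. In the 16 genes with SUZ12 it reached 2636.5 bp upstream and 2682.5 bp downstream. At the remaining 2 genes, Phc3 and Jarid2, the peak lay within the promoter and did not reach the TSS.

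**Figure D3:**
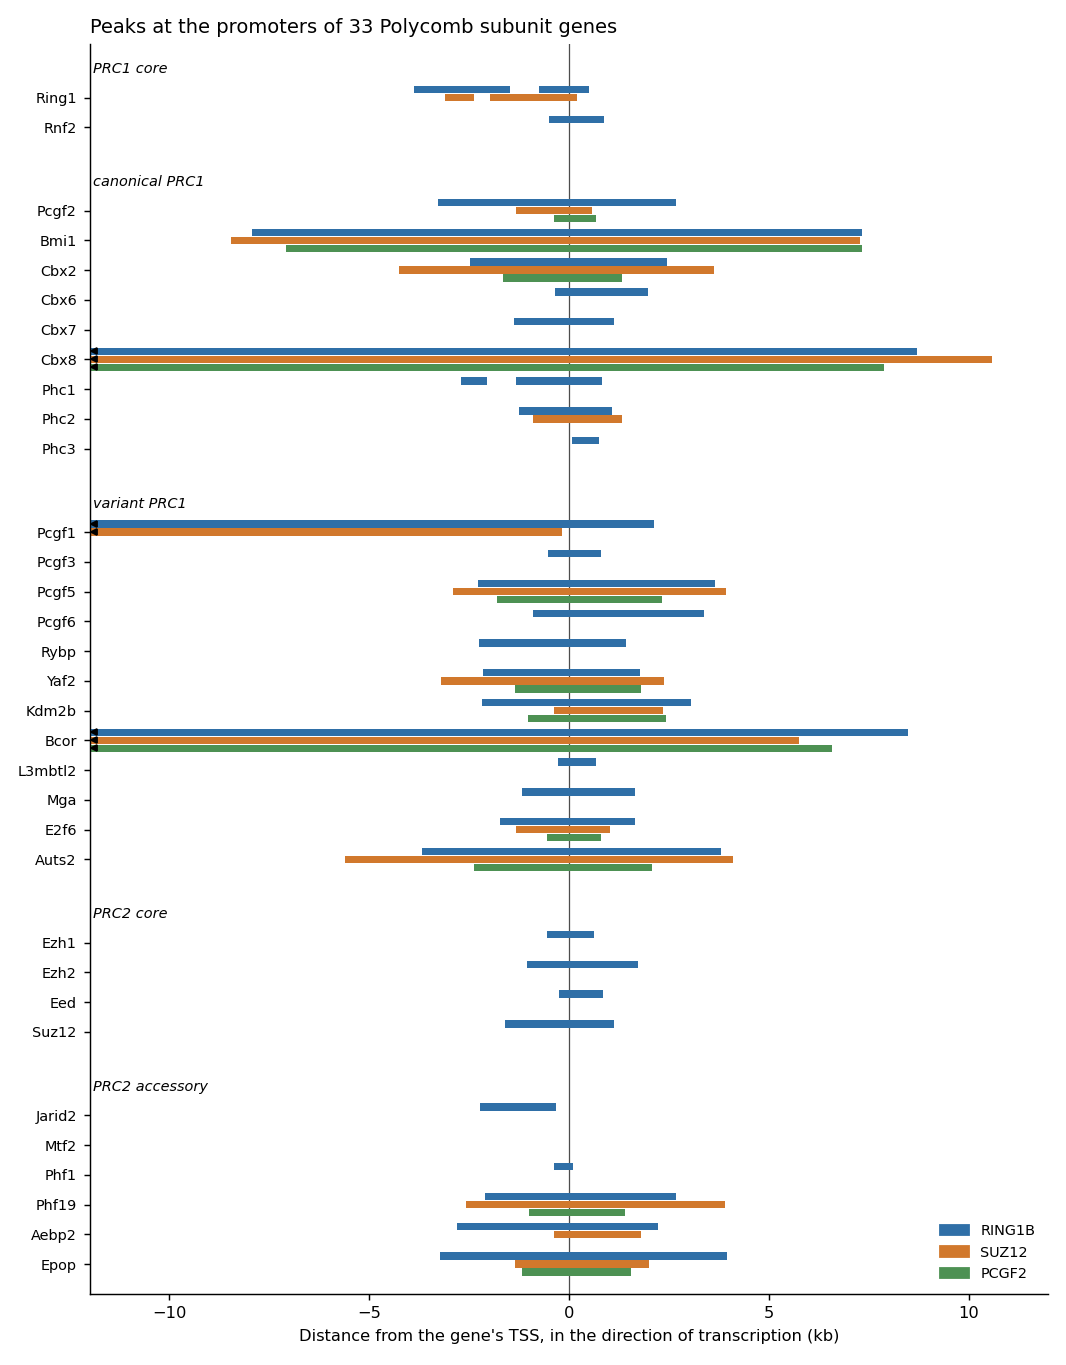
Peaks of RING1B, SUZ12 and PCGF2 (coloured bars) around 1 TSS of each of the 33 genes, as distance from that TSS in the direction of transcription (horizontal axis, kb, drawn to 12 kb on each side). Black arrowheads mark peaks that run past the drawn range. The TSS shown is the one nearest the widest RING1B peak. PRC2 core genes have RING1B bars only, of 1093 to 2770 bp, while Bmi1, Cbx8 and Bcor have long bars in all 3 lists.

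The PRC1 core genes encode the ubiquitin ligases themselves, and both held RING1B. Rnf2, which encodes RING1B, had a single RING1B peak of 1389 bp (chr1:151500106-151501494), from 503 bp upstream to 885 bp downstream of its TSS. Its nearest SUZ12 peak was 68387 bp away. Rnf2 thus held its own product, RING1B, and neither of the other proteins.

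Ring1, which encodes RING1A, had RING1B over its TSS in a peak of 1235 bp (chr17:34024189-34025423). A SUZ12 peak of 2171 bp (chr17:34024490-34026660) covered the TSS as well and reached 1237 bp farther upstream than RING1B. A second RING1B peak of 2404 bp and a second SUZ12 peak of 728 bp lay within the same promoter window, but that RING1B peak covered the TSS of the neighbouring gene H2-Ke6. The first pair also covered the TSSs of the microRNA genes Mir219a-1 and Mir219c. To which of these genes the peaks belong cannot be told apart.

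Both loci were edited to make the cell lines, so the edited bases were placed beside the peaks. In PRC1CKO cells Ring1 was cut with a guide pair, whose sequences were matched to the mouse genome and are shown with the neighbouring PAM (the motif the nuclease needs) in capitals because they fix the ends of the deletion.
Ring1 guide 3 (chr17:34024393-34024412, minus strand): ctcagcggagccccgcttggAGG
Ring1 guide 4 (chr17:34022878-34022897, minus strand): gcgaccgtgcagctgacgttGGG

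Cuts 3 bases from each PAM would remove 1515 bp (chr17:34022881-34024395). Of the 1235 bp RING1B peak at the Ring1 TSS, 207 bp (16.8%) lies in that interval, and 0 bp of either SUZ12 peak does. The positions of the sequenced alleles were not analysed here. The guide for the Ring1 knock-in in PRC1CPM cells cuts 1299 bp downstream of the TSS, and the 5 Rnf2 guides cut 21612 to 24228 bp downstream of the Rnf2 TSS. None of those 6 cuts fell in a peak of any list.

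Canonical PRC1 genes divided into 4 with all 3 proteins (Pcgf2, Bmi1, Cbx2 and Cbx8), Phc2 with RING1B and SUZ12, and 4 with RING1B alone. PCGF2 and BMI1 are the alternative PCGF subunits of this complex. The Bmi1 TSS lay inside a domain listed for each protein, with RING1B over 15269 bp (chr2:18669083-18684351), SUZ12 over 15742 bp and PCGF2 over 14406 bp. The domain ended before the 3′ end of Bmi1 and also covered the TSS of Commd3. A second domain with RING1B over 16923 bp overlapped the 3′ end of Bmi1 and the promoter of Spag6. Together the 2 RING1B peaks covered 83.6% of Bmi1. Pcgf2 itself, the gene of the profiled protein, had a RING1B peak of 5956 bp (chr11:97697814-97703769) and, inside it, listed peaks of 1923 bp for SUZ12 and 1048 bp for PCGF2. That RING1B peak also covered the TSS of Psmb3, which the SUZ12 and PCGF2 peaks did not, so its width cannot be assigned to Pcgf2 alone.

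CBX proteins carry the chromodomain that reads the PRC2 mark. Cbx8 had the widest RING1B peak of all 33 genes, 31577 bp (chr11:119032208-119063784), at percentile 99.1 of the genes with RING1B. SUZ12 covered 36903 bp there and PCGF2 28659 bp, and RING1B covered 100.0% of the gene. The domain ran from 22.871 kb upstream to 8.705 kb downstream of the TSS and held no TSS of another gene.

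Cbx2 lies 17.892 kb from Cbx8 and had domains of its own, RING1B over 4916 bp (chr11:119020556-119025471), SUZ12 over 7872 bp and PCGF2 over 2987 bp. Between the domains of this pair of genes RING1B left a gap of 6.736 kb, SUZ12 3.672 kb and PCGF2 8.668 kb. The gap held a RING1B peak of 685 bp within Cbx2, and the SUZ12 domain of Cbx8 reached into the end of Cbx2. So Cbx2 and Cbx8 are neighbours that were listed as separate domains in all 3 lists.

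The other CBX genes, Cbx6 and Cbx7, held RING1B alone, over 2326 bp and 2503 bp. They are 98.313 kb apart, and the nearest SUZ12 peaks were 26345 bp from Cbx6 and 79425 bp from Cbx7. The Cbx6 promoter also holds the TSS of Npcd, which the RING1B peak covered.

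PHC proteins carry the SAM domain by which canonical PRC1 can form chains. Phc1 had RING1B over 2157 bp at its TSSs and 633 bp farther upstream, and Phc3 had the narrowest peak of the class, 688 bp (chr3:30968661-30969348), which began 67 bp downstream of the TSS. Phc2 had RING1B and SUZ12 at the first and the last of its 3 TSSs, which lie 72.869 kb apart. RING1B covered 2072 bp and 2328 bp there, and SUZ12 covered 1937 bp and 2227 bp. The middle TSS had no peak, the nearest RING1B being 11973 bp away.

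Of 3 hexamers searched in the promoters, one was unevenly spread over the classes. CACGTG, an E-box, was looked for on both strands from 250 bases before to 50 bases after each TSS in the RefSeq promoter table, which held 27 of the 33 genes (all but Cbx2, Pcgf1, Rybp, Yaf2, Auts2 and Epop) and 39 of the 50 TSSs of the 33 genes. It was present in 6 of the 8 canonical PRC1 genes in the table and in 0 of the other 19 subunit genes. Over all genes in the table it was in 2187 of 27025, and over those with RING1B in 1336 of 10777. By promoter it was in 6 of 39 of the subunit genes (15.4%), beside 7.15% of all promoters and 10.4% of those of genes with RING1B. The 6 sites are shown with 20 bases on either side and the E-box in capitals, since they are the sequences this split rests on (GRCm38.p6, RefSeq, each written on its gene's strand).
Bmi1 (chr2:18676783-18676828, plus strand): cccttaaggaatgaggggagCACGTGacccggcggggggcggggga
Cbx6 (chr15:79834334-79834379, minus strand): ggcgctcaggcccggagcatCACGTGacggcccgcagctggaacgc
Cbx8 (chr11:119040986-119041031, minus strand): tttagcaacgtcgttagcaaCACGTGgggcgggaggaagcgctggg
Pcgf2 (chr11:97699760-97699805, minus strand): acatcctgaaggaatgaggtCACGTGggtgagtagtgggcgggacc
Phc2 (chr4:128654625-128654670, plus strand): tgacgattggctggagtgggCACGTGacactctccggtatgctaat
Phc3 (chr3:30969472-30969517, minus strand): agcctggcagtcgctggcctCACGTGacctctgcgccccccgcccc

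All 6 lie before a TSS, from 215 bases upstream at Bmi1 to 26 bases upstream at Cbx6. At Pcgf2 that TSS is the second of 3 and lies 0.849 kb downstream of the first. The Pcgf2 site is thus within the gene, downstream of its first TSS. The sites of Bmi1 and Cbx8 lay in peaks of all 3 lists, those of Cbx6, Pcgf2 and Phc2 in RING1B peaks only, and that of Phc3 in none. The E-box thus occurred at canonical PRC1 genes with and without SUZ12. The other hexamers were not divided by class in this way. TCCCGC, the core of E2F sites, was in 14 of the 39 subunit promoters (35.9%), beside 20.0% of all promoters and 36.4% of those of genes with RING1B. TATAAA was in 1 of 39 (2.56%), beside 13.6% and 6.91%. A match describes the letters in this window and does not show that a factor binds.

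Among the 12 variant PRC1 genes, all 3 proteins were at Pcgf5, Yaf2, Kdm2b, Bcor, E2f6 and Auts2. RING1B and SUZ12 were at Pcgf1, and RING1B alone was at Pcgf3, Pcgf6, Rybp, L3mbtl2 and Mga. The RING1B peaks ranged from 954 bp at L3mbtl2 (chr15:81663602-81664555) to 22452 bp at Bcor.

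BCOR, KDM2B and PCGF1 act together in PCGF1-PRC1, where KDM2B brings the complex to unmethylated CpG-rich DNA through its zinc finger. At the Bcor TSS lying 79.802 kb into the gene, RING1B covered 22452 bp (chrX:12072077-12094528), SUZ12 19909 bp and PCGF2 19499 bp. At the first TSSs of the gene RING1B covered 11060 bp, SUZ12 11122 bp and PCGF2 9999 bp. Between them an intronic domain without any promoter held RING1B over 20255 bp, SUZ12 over 17291 bp and PCGF2 over 18078 bp. A further RING1B peak of 5189 bp within the gene held SUZ12 over 1322 bp. Together the 4 RING1B peaks covered 47.1% of Bcor.

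Kdm2b has a promoter region at its start and another 88.7 kb downstream. The first held RING1B over 5238 bp (chr5:122985456-122990693), SUZ12 over 2727 bp and PCGF2 over 3454 bp. The downstream one held RING1B over 2794 bp and SUZ12 over 2936 bp, and the nearest PCGF2 peak was 51002 bp from its closer TSS. A further intronic site about 37.2 kb into the gene held all 3 proteins, with RING1B over 3488 bp. PCGF2 was therefore listed at one promoter region of Kdm2b and not at the other, and the first region is shared with the TSS of A930024E05Rik.

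Pcgf1 had RING1B over 16393 bp (chr6:83064135-83080527), reaching from 14255 bp upstream to 2137 bp downstream of its TSS. SUZ12 covered 17109 bp of the same region but ended 169 bp before the TSS, and the nearest PCGF2 peak was 5356 bp away. RING1B covered 86.7% of Pcgf1 and SUZ12 0.0%. The TSS of Tlx2, a homeobox gene, lay inside both peaks, so to which of these genes the domain belongs cannot be told apart.

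PCGF5 and AUTS2 belong to PCGF3/5-PRC1. Pcgf5 has 3 TSSs, and peaks were found at the first and the last. At the first, RING1B covered 5929 bp (chr19:36346050-36351978), SUZ12 6837 bp and PCGF2 4145 bp. At the last, 61.419 kb downstream, the widths were 2402 bp, 2706 bp and 816 bp. The middle TSS had no peak, with SUZ12 at the nearest 26810 bp away and RING1B 27089 bp away. The 150 bases before each TSS are shown because the occupied and the empty promoter of this gene differ in their CpG dinucleotides, which are in capitals (GRCm38.p6, RefSeq, plus strand).
Pcgf5 first TSS (chr19:36348179-36348328): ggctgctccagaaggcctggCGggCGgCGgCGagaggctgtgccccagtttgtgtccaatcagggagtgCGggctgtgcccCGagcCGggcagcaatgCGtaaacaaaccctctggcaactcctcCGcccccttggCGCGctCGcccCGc
Pcgf5 middle TSS (chr19:36378917-36379066): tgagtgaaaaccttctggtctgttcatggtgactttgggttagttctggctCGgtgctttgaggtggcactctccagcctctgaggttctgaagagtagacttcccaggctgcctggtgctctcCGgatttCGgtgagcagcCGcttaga
Pcgf5 last TSS (chr19:36409598-36409747): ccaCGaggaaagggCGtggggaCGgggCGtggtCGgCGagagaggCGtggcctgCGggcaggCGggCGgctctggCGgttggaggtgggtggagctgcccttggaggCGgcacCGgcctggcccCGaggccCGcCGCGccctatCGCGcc

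These windows hold 13, 4 and 19 CpGs. The longest CpG-rich stretch was 1670 bp at the first TSS and 1210 bp at the last, and there was none at the middle one. The promoters of Phc2 followed the same order, with 9, 0 and 27 CpGs before the first, middle and last TSS and no CpG-rich stretch at the middle one.

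**Figure D4:**
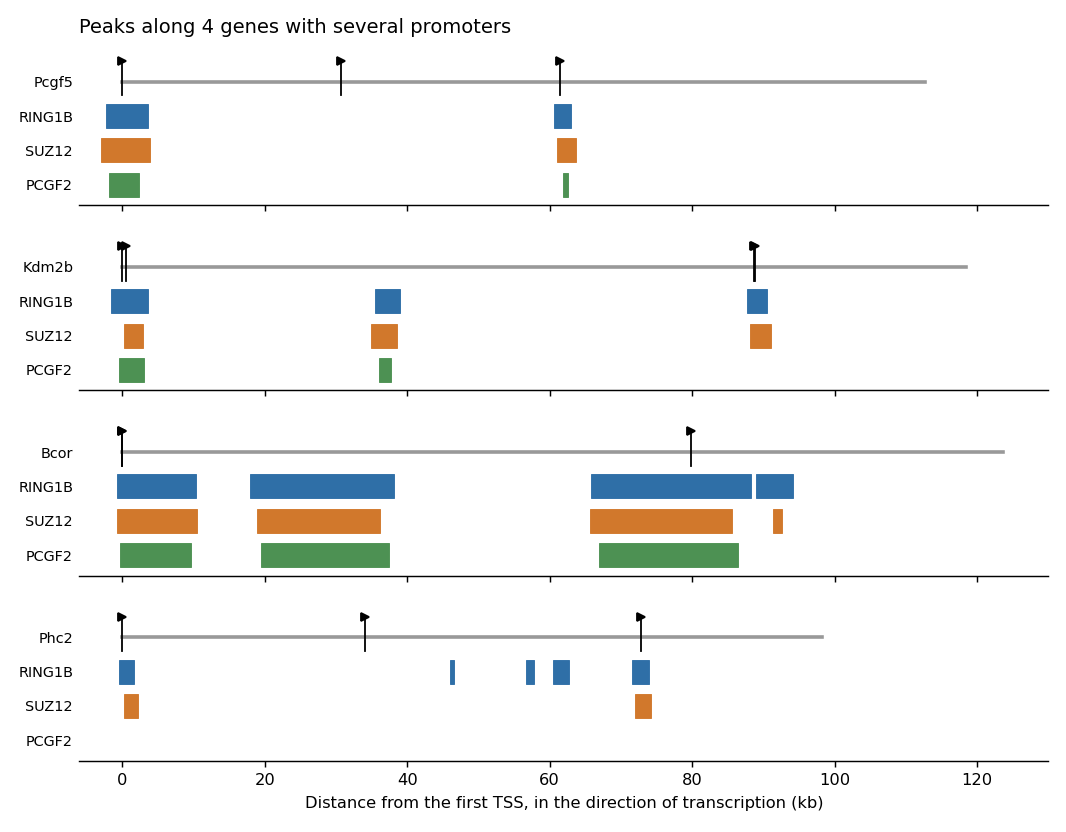
Peaks of RING1B, SUZ12 and PCGF2 along Pcgf5, Kdm2b, Bcor and Phc2, as distance from the first TSS in the direction of transcription (horizontal axis, kb). Grey lines are the genes and black arrows their TSSs. The middle TSSs of Pcgf5 and Phc2 have no peak, and Bcor and Kdm2b have a further site with all 3 proteins between their promoters.

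Auts2, the longest of the 33 genes at 1105.888 kb, had RING1B over 7500 bp (chr5:132539405-132546904), SUZ12 over 9706 bp and PCGF2 over 4447 bp at its TSS. RING1B peaks covered 0.830% of the gene, with a site of all 3 proteins about 1005.63 kb from the TSS, where RING1B covered 3649 bp. Pcgf3, the close relative of Pcgf5, differed from it, with a RING1B peak of 1316 bp and the nearest SUZ12 peak 12280 bp away.

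RYBP and YAF2 are alternative subunits that define variant PRC1. Yaf2 had RING1B over 3925 bp (chr15:93335153-93339077), SUZ12 over 5590 bp and PCGF2 over 3151 bp. Rybp had a RING1B peak of nearly the same width, 3688 bp, and no SUZ12 within 275195 bp. This pair of related genes had like RING1B widths and CpG-rich stretches (1820 bp and 1920 bp), but different proteins in the lists.

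MGA, L3MBTL2 and E2F6 are subunits of PCGF6-PRC1, which represses germline genes. Of Pcgf6 and these 3 genes, E2f6 alone had all 3 proteins, RING1B over 3388 bp (chr12:16809237-16812624), SUZ12 over 2345 bp and PCGF2 over 1345 bp. Pcgf6 had RING1B over 4272 bp and Mga over 2847 bp, and the nearest SUZ12 peaks were 34416 bp and 23796 bp away.

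PRC2 core genes held RING1B and neither of the other proteins. Eed, which reads the PRC2 mark, had RING1B over 1093 bp, and Ezh1, one of the methyltransferases, over 1164 bp. Suz12, which encodes the scaffold subunit, had RING1B over 2742 bp, and Ezh2, the other methyltransferase, over 2770 bp (chr6:47593304-47596073). None had SUZ12 or PCGF2 at a promoter. The nearest SUZ12 peak was 17765 bp from Suz12, 18366 bp from Ezh1, 56177 bp from Ezh2 and 319812 bp from Eed. Ezh2 shares its promoter with F830010H11Rik. The CpG-rich stretches of these 4 genes, 920 bp to 1790 bp, lay within the range of the 16 genes with SUZ12 in 3 cases and below it only at Ezh1.

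PRC2 accessory genes ranged from no peak to all 3 proteins. EPOP and PHF19 are subunits of the PRC2.1 form. Epop had RING1B over 7196 bp (chr11:97625759-97632954), SUZ12 over 3354 bp and PCGF2 over 2735 bp, and RING1B covered 100.0% of this short gene. Phf19 had RING1B over 4788 bp (chr2:34911294-34916081), SUZ12 over 6472 bp and PCGF2 over 2391 bp. Aebp2, a PRC2.2 subunit, had RING1B over 5044 bp (chr6:140619855-140624898) and SUZ12 over 2188 bp, with PCGF2 no nearer than 621229 bp.

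The paralogs of Phf19, Phf1 and Mtf2, which also encode Polycomb-like proteins of PRC2.1, stood at the other end. Phf1 had the narrowest RING1B peak of all 33 genes, 472 bp (chr17:26932748-26933219), at percentile 3.3 of the genes with RING1B, in a promoter that holds the TSS of another gene. Mtf2 had no peak at either TSS, with RING1B 63660 bp from the first and 53467 bp from the second. Jarid2, the other PRC2.2 subunit, had RING1B over 1907 bp that ended 320 bp before its first TSS, and a small site with RING1B (266 bp) and SUZ12 (261 bp) about 138.9 kb into the gene.

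The 150 bases before the TSSs of Mtf2 are shown because it is the single subunit gene without RING1B, with CpGs in capitals (GRCm38.p6, RefSeq, plus strand).
Mtf2 first TSS (chr5:108065524-108065673): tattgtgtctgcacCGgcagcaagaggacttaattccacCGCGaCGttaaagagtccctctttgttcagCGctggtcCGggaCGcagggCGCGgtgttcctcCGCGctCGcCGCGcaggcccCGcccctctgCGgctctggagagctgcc
Mtf2 second TSS (chr5:108078015-108078164): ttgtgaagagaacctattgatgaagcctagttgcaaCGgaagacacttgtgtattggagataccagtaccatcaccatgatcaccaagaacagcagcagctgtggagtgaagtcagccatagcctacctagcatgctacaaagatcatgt

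They hold 16 CpGs and 1 CpG. The first TSS has a CpG-rich stretch of 970 bp, longer than those of Phf1 (760 bp) and Cbx7 (610 bp), which had RING1B. Mtf2 was thus without RING1B at a CpG-rich promoter, as were 13.2% of genes with a stretch of at least 500 bp. The authors had removed RING1B peaks that did not fall significantly on tamoxifen, so a gene without a listed peak can still hold RING1B.

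Counted by TSS in place of gene, RING1B was at 45 of the 46 member TSSs with any CpG-rich stretch (97.8%, beside 78.3% of such TSSs over all genes). It was at 1 of the 4 without one (25.0%, beside 10.6%). The exceptions were the first Mtf2 TSS and the fourth Aebp2 TSS, whose promoter window was reached by a RING1B peak that ended 1987 bp away. TSSs of a gene can lie under the same peak, as the 3 of Pcgf2 do, so this count holds some peaks more than once.

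Members with SUZ12 had a median CpG-rich stretch of 1575 bp and a median CpG observed/expected ratio (the highest of a gene's promoter windows) of 0.654, and those with RING1B alone had 1110 bp and 0.516. Over all genes the same states had 1040 bp and 0.460 against 910 bp and 0.426. The stretches of both states overlapped, from 1010 bp to 3270 bp with SUZ12 and from 610 bp to 1940 bp without. For each gene the largest value over its TSSs was taken. Several TSSs were present at 6 of the 16 members with SUZ12 and at 2 of the 16 with RING1B alone. Over all genes they were present at 1470 of 6410 and at 1484 of 7512. The part of this imbalance in the difference was not tested. Across the 32 members the RING1B width and the stretch had a Spearman correlation of 0.53, beside 0.28 across the 13922 genes with RING1B. These genes share the same peak list, so the correlation is a description.

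**Figure D5:**
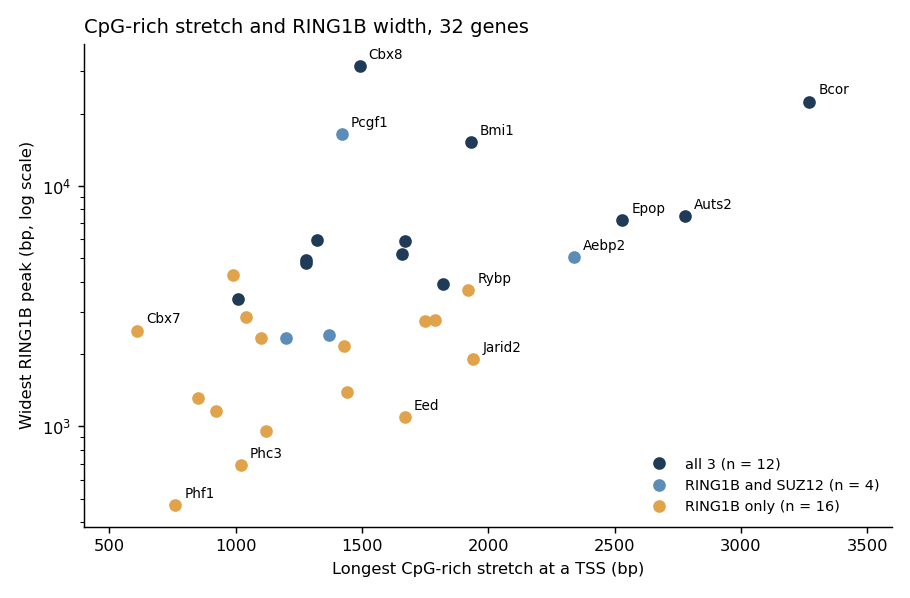
Longest CpG-rich stretch at a TSS (horizontal axis, bp) against the width of the widest RING1B peak (vertical axis, bp, log scale) for the 32 members with RING1B. Colour gives the proteins present. Stretches of genes with RING1B alone (610 to 1940 bp) and of genes with SUZ12 (1010 to 3270 bp) overlap, and Cbx8 and Pcgf1 have wide peaks over stretches of 1490 and 1420 bp. The Pcgf1 peak also covers the TSS of Tlx2, so its width may not belong to Pcgf1.

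At genes with SUZ12 the SUZ12 peak did not keep to a single relation with the RING1B peak, though here the calling rules of the lists differ. SUZ12 extended past RING1B on both sides at Cbx2, Cbx8, Yaf2, Auts2, Phf19 and the first Pcgf5 promoter. At Cbx2 it did so by 1780 bp upstream and 1176 bp downstream, and at Auts2 by 1924 bp and 282 bp. It lay wholly inside the RING1B peak at Pcgf2, E2f6, Aebp2, Epop and the first Kdm2b promoter, as did the second, 728 bp SUZ12 peak at Ring1. At Aebp2 RING1B reached 2433 bp farther upstream and at Epop 1891 bp. PCGF2 passed the RING1B peak by 15 bp at Yaf2 and 2 bp at Bmi1 and lay inside it at the other 10 genes.

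Other genes of the pathway were taken from fixed lists of subunits shared with other complexes or homologous to Polycomb subunits (22 genes) and of enzymes and partners that oppose Polycomb or maintain active genes (12 genes). RING1B was at 20 of the 22, SUZ12 at 7 and PCGF2 at 3. Sfmbt2, which encodes an MBT-domain protein, had RING1B over 11271 bp, Bcorl1, the paralog of Bcor, over 6948 bp, and Sfmbt1 over 4159 bp, all with the other 2 proteins. Fbrsl1, Hdac2, Tfdp1 and Scmh1 had RING1B and SUZ12 only. Among the 12 opposing genes RING1B was at 10, SUZ12 at 3 and PCGF2 at 1. Asxl3, a cofactor of the H2A deubiquitinase, held all 3, with RING1B over 4788 bp, and Bap1, which encodes that enzyme, and Kmt2c held RING1B and SUZ12. RING1B was thus at 90.9% of the shared-subunit list and 83.3% of the opposing list, both near the 86.8% of genes with a CpG-rich stretch. The SUZ12 shares were 31.8% and 25.0%, between the 24.8% of all genes and the 40.8% of genes with a CpG-rich stretch. PCGF2 was at 13.6% and 8.33%, beside 13.5% of all genes and 23.0% of genes with a CpG-rich stretch.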

How the data were processed

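Per the labels and the study's methods, the authors aligned paired reads with Bowtie2 to mm10 joined to the hg19 spike-in genome and called broad peaks with MACS2 against Input, dropping a custom blacklist. RING1B and SUZ12 peaks were called on merged replicates of untreated PRC1CPM and PRC1CKO cells and kept if found in both lines, and RING1B peaks without a significant loss on tamoxifen in PRC1CKO cells were removed. PCGF2 peaks were called in each untreated PRC1CPM replicate and kept if found in all. The deposited values are peak positions in bp (chromosome, start and end), with no score. These rules can change the number and the width of peaks, and the depth behind a peak is unknown.

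Starts were shifted to base 1. TSSs were those of curated RefSeq transcripts of GRCm38.p6 (mm10), widened by 2500 bp on each side, with an overlap of at least 1 bp. CpG-rich stretches were merged 200 bp windows (step 10 bp, GC at least 50%, observed/expected at least 0.6) within 500 bp of a TSS. Positions without replicates allow no test, so members are set beside all genes. Members, lists and alternatives were chosen with earlier results of these data known. Full values are given for members with SUZ12 or PCGF2, the member without RING1B, the widest and narrowest RING1B peak of each class, Ring1 and Rnf2. Other pathway genes are named where they hold PCGF2 or SUZ12. The overlap code, tested on simulated data, differed from a brute-force search in 0 of 3000 windows. Python 3.11.15, NumPy 2.4.6, pandas 2.3.3 and matplotlib 3.10.9 were used.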

Additional observations from a re-analysis of the deposited data

How the results depend on the processing

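Changing the promoter window, the transcripts, the overlap rule, the minimum peak width or shared promoters left each of the 54 recomputed counts of members within 1.5 times its value, though the genes counted changed. That band is wide for counts of this size. Members with RING1B numbered 27 to 32 over the settings, with SUZ12 13 to 17 and with PCGF2 10 to 12. The lowest RING1B count, 27, was of the 28 members that share no promoter. With the TSS base alone, Jarid2 and Phc3 lost RING1B and Pcgf1 lost SUZ12. With peak midpoints in the promoter, Bcor, Cbx8 and Pcgf1 lost RING1B and SUZ12, and Bcor and Cbx8 also PCGF2. With peaks of at least 1000 bp, L3mbtl2, Phc3 and Phf1 lost RING1B, and with an overlap of at least 500 bp Phf1 did. Cbx6, Ezh2, Kdm2b, Phf1 and Ring1 drop out where genes that share a promoter are left out. With predicted transcripts included, Mga gained SUZ12. The shares over all genes moved too. RING1B was at 41.97% of all genes with predicted transcripts included and at 58.41% with curated protein-coding transcripts only, beside 53.18%. SUZ12 was at 19.7% and 27.2% in these settings, beside 24.78%, and PCGF2 at 10.81% and 14.5%, beside 13.45%. Of 21 recomputed median RING1B widths, 14 were unchanged. In canonical PRC1 the median was 3709.5 bp with the TSS base alone and with genes that share no promoter, 3529 bp with peaks closer than 1000 bp merged, and 4400 bp with the peaks of a gene summed. In variant PRC1 it was 4363 bp with predicted transcripts and 3925 bp with genes that share no promoter. In PRC2 it was 2756 bp with the TSS base alone. The order of variant above canonical PRC1 held in all of these except the sum of peaks, where it turned. The backgrounds of CpG-rich genes and of genes with RING1B were added after seeing the data. No paired analysis was possible because each list is a single set of positions without replicates, and no replicate could be left out either. The lists hold peaks that passed a caller, so an absent peak is not an absent protein, and read depth sets what could be called.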
